A study of Mus musculus with 6 samples.

Results

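The CC chemokine ligands are small secreted proteins, and 10 of their genes, of 10698 named by the array annotation, were taken here: Ccl2, Ccl3, Ccl4, Ccl5, Ccl6, Ccl7, Ccl9, Ccl12, Ccl17 and Ccl22. The annotation held 22 probes for these 10 genes among 16281 probes in all, and each probe was kept, also where some arrays gave it no ratio. The cells were RAW 264.7, a mouse macrophage line transformed by Abelson leukaemia virus, which the labels in part call RAW 264.4. They were either stimulated for 1 h with 100 ng/ml lipopolysaccharide (LPS) and 100 pM LPS-binding protein (LBP), or left untreated for the same 1 h. Both RNAs were hybridised on each of 6 dual-colour arrays, of which 3 (sets 1 to 3) had the stimulated RNA in Cy5 and 3 (again sets 1 to 3) had it in Cy3. As a single transformed line in culture, the cells stand in for tissue macrophages only in part.

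Chemokines bind receptors on leukocytes and draw them along a gradient, and the CC family is named for a pair of adjacent cysteines near the start of the mature protein. Macrophages are a known source of several members. LPS, carried by LBP to CD14 and TLR4, activates NF-kappaB, AP-1 and interferon regulatory factors, and these are known to act on several chemokine genes. Ccl3, Ccl4 and Ccl5 attract monocytes and T cells, Ccl2, Ccl7 and mouse Ccl12 act on CCR2, Ccl6 and Ccl9 act in the mouse on CCR1, and Ccl17 and Ccl22 act on CCR4.

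Values are log2 ratios of stimulated over untreated RNA, so 1 stands for a 2-fold higher level in stimulated cells. The sign follows from reading the ratio as Cy5 over Cy3, which is likely because the labels name the Cy5 RNA the test, and every sign would turn with the other reading. A value listed as exactly 0 was taken as no ratio. The arrays of a set were averaged, and the mean ± SD is over these averages (n = 3 sets unless stated). The labels do not say whether sets came from separate cultures, so p-values speak only of how these arrays vary, and that variation may be technical. Fewer cells and less RNA per cell cannot be told apart in such bulk RNA. Array ratios give no level of a transcript, so whether the cells expressed macrophage genes could not be checked. A ratio was present for 12 of 12 probes of macrophage markers, but also for 16 of 16 of lymphocyte markers and 12 of 13 of fibroblast and epithelial markers, so having a ratio does not tell these cells apart. Of the macrophage marker probes 1 of 12 was higher and 0 were lower by limma, against 3.38% and 2.42% of all probes. At an unadjusted p under 0.05 there were 2 and 1, against 10.2% and 9.45%. Of the 13 and 12 tested probes of the other marker lists 0 were called (2 and 0 at an unadjusted p under 0.05).

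Ccl4, Ccl3, Ccl2 and Ccl5 had probes called higher after 1 h, Ccl3 on 3 arrays only. No member probe was called lower, though the intervals of several leave room for a fall. The rise was largest for Ccl4, at 2.37 ± 0.17 and 2.43 ± 0.11 on its 2 measured probes, or 5.16-fold and 5.38-fold. Ccl3 averaged 1.37, Ccl2 1.15 and 1.03, and Ccl5 0.86 on its complete probe. Of the 17 member probes tested, 6 passed as higher (limma, Benjamini-Hochberg adjusted p under 0.05 over 14723 probes), against 3.38% of all probes tested. None passed as lower, against 2.42% of all probes, a share at which 0 of 17 says little. At an unadjusted p under 0.05 the counts were 8 higher and 0 lower, against 10.2% and 9.45% of all probes. The 6 called probes belong to 4 genes, and the other 6 genes (Ccl6, Ccl7, Ccl9, Ccl12, Ccl17 and Ccl22) had no called probe. The median over the 17 tested probes was 0.24, and that over all tested probes was -0.0047. Of the remaining 5 member probes, 1 was listed at 0 on all arrays and 4 had ratios in a single set.

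**Figure D1:**
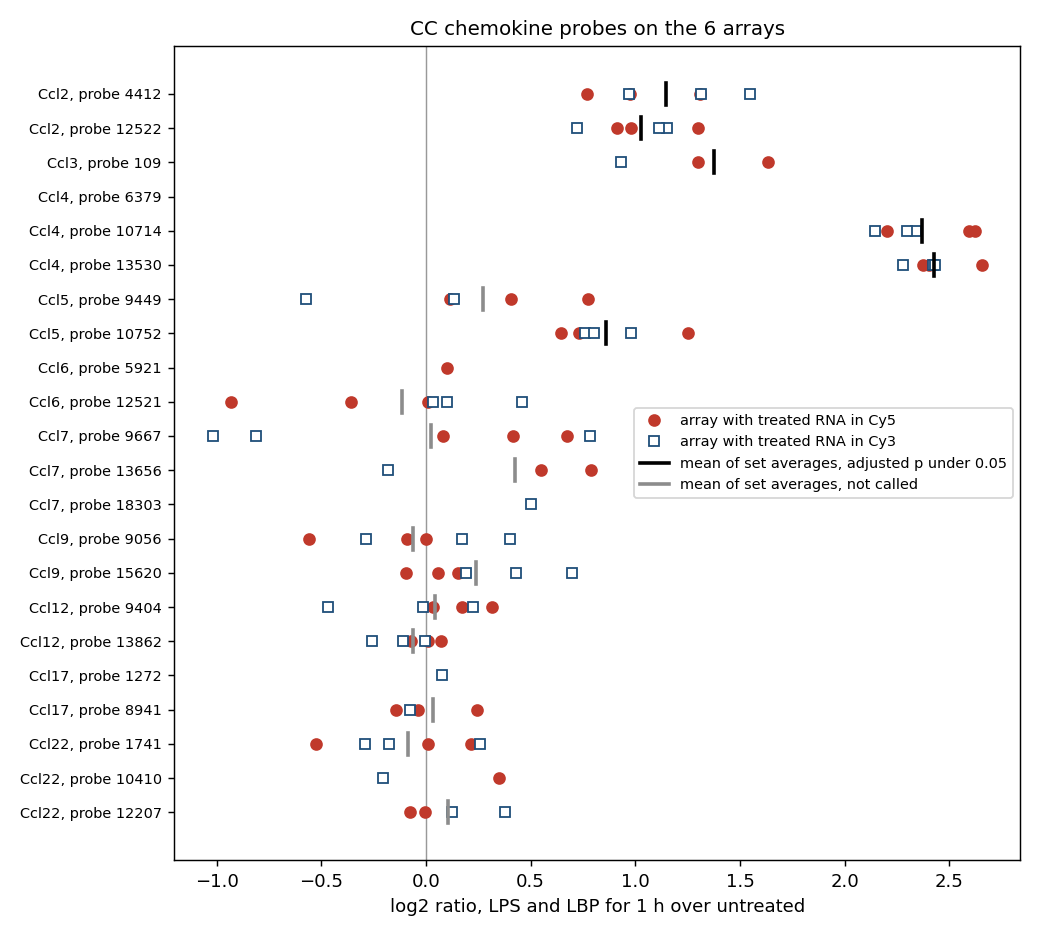
Each row is a CC chemokine probe and the horizontal axis is the log2 ratio of stimulated over untreated RNA; filled circles are arrays with stimulated RNA in Cy5, open squares those with it in Cy3, and bars are means of set averages, black where called. The points of Ccl2, Ccl3, both measured Ccl4 probes and Ccl5 probe 10752 all lie above 0, and those of the other genes scatter around 0.

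Among Ccl3, Ccl4 and Ccl5, Ccl4 encodes MIP-1 beta, which attracts monocytes and T cells. Its probe 13530 gave ratios of 2.66, 2.40 and 2.37 with stimulated RNA in Cy5 and 2.42, 2.43 and 2.28 with it in Cy3, for sets 1, 2 and 3. Its probe 10714 gave 2.59, 2.63 and 2.20 in Cy5 and 2.34, 2.30 and 2.15 in Cy3. The lowest of the 12 ratios was 2.15, so each Ccl4 array stood above every array of any other member, whose highest was 1.63 for Ccl3. The adjusted p was 0.000522 for probe 13530 and 0.000938 for probe 10714, and these probes ranked 29 and 30 from the top among the 14723 tested. The remaining Ccl4 probe, 6379, was listed at 0 on all 6 arrays and gives no value.

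Ccl3 encodes MIP-1 alpha, a close relative of Ccl4 that acts on CCR1. Its only probe, 109, had a ratio on 3 arrays. With stimulated RNA in Cy5 it was 1.63 in set 2 and 1.30 in set 3, and in Cy3 it was 0.93 in set 3. All 3 ratios were thus above 0, though set 2 rests on a single dye orientation. The mean was 1.37 ± 0.37 (n = 2 sets, adjusted p = 0.0333). The adjusted p is the highest of the 6, and the call was lost with zeros kept as ratios (0.64, adjusted p = 0.193) and when set 1, where Ccl3 had no ratio, was left out of the fit of all probes (1.37, adjusted p = 0.063). Only 1 set had both orientations, so the probe could not be tested on such sets alone.

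Ccl5 encodes RANTES, which attracts T cells and monocytes. Probe 10752 gave 0.65, 1.25 and 0.73 with stimulated RNA in Cy5 and 0.98, 0.76 and 0.80 with it in Cy3. It was higher in stimulated RNA on all 6 arrays, and rose by 0.86 ± 0.13, or 1.82-fold (adjusted p = 0.0061), with an adjusted p of 0.054 at 0.89 when set 1 was left out. Probe 9449 of the same gene gave 0.41, 0.78 and 0.11 in Cy5, and -0.57 and 0.13 in Cy3 for sets 1 and 3. It averaged 0.27 ± 0.45 (95% interval -0.20 to 0.75, adjusted p = 0.467), and this mean was 0.45 without set 1 and 0.021 without set 2, the set of its highest array. The probes of Ccl5 thus gave different calls, and the rise of Ccl5 rests on probe 10752.

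Among the ligands of CCR2, Ccl2 encodes MCP-1, the main attractant of inflammatory monocytes. Probe 4412 gave 1.31, 0.97 and 0.77 with stimulated RNA in Cy5 and 1.55, 1.31 and 0.97 with it in Cy3. Probe 12522 gave 1.30, 0.98 and 0.91 in Cy5 and 1.15, 1.11 and 0.72 in Cy3. All 12 ratios lay above 0, and on both probes and in both orientations set 1 was the highest and set 3 the lowest. The means were 1.15 ± 0.28 (2.21-fold, adjusted p = 0.0138) and 1.03 ± 0.20 (2.04-fold, adjusted p = 0.0096), so the probes of Ccl2 differed by less than their spread.

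Ccl7 encodes MCP-3, a relative of Ccl2 that also attracts monocytes, and its 3 probes gave no call. Probe 9667 gave 0.42, 0.67 and 0.08 with stimulated RNA in Cy5, and -0.81, -1.02 and 0.79 with it in Cy3. The arrays thus ran both ways, and the mean of 0.02 ± 0.36 has an interval from -0.36 to 0.41, which leaves room for a change of either sign (adjusted p = 0.944). Probe 13656 gave 0.79 and 0.55 in Cy5 and -0.18 in Cy3, with a mean of 0.43 ± 0.17 (n = 2 sets, adjusted p = 0.114). It passed on the arrays with stimulated RNA in Cy5 alone (0.67, adjusted p = 0.0399) and after quantile normalization (0.58, adjusted p = 0.0411). Probe 18303 had a ratio on 1 array, at 0.50.

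Ccl12, the mouse gene of MCP-5, was measured on all 6 arrays by both its probes. Their 12 ratios ran from -0.47 to 0.32, with 6 above and 6 below 0. The means were 0.04 ± 0.25 (interval -0.23 to 0.32) and -0.06 ± 0.09 (interval -0.20 to 0.08), with adjusted p = 0.843 and 0.582. Both intervals lie below those of the Ccl2 means, 0.84 to 1.45 and 0.79 to 1.27, though the difference between the genes was not tested.

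The ligands of CCR1, Ccl6 and Ccl9, are known in the mouse as products of macrophages and other myeloid cells. Ccl6 probe 12521 gave -0.36, -0.93 and 0.01 with stimulated RNA in Cy5 and 0.10, 0.46 and 0.04 with it in Cy3. The mean was -0.11 ± 0.13 (interval -0.29 to 0.06, adjusted p = 0.417), and its arrays on the whole lay lower in Cy5 than in Cy3. Probe 5921 of Ccl6 had 1 ratio, at 0.10. Ccl9 probe 15620 averaged 0.24 ± 0.17 (interval 0.03 to 0.45, adjusted p = 0.20), with 5 of 6 arrays above 0, whereas probe 9056 averaged -0.06 ± 0.23 (interval -0.32 to 0.20, adjusted p = 0.764) with 3 above and 3 below. The signs of the 2 Ccl9 probes thus differed, and neither was called.

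The ligands of CCR4, Ccl17 (TARC) and Ccl22 (MDC), attract Th2 cells and regulatory T cells. Ccl17 probe 8941 gave -0.14, -0.04 and 0.25 with stimulated RNA in Cy5 and -0.08 in Cy3 for set 1, with a mean of 0.03 ± 0.19 (interval -0.19 to 0.25, adjusted p = 0.857). Probe 1272 had 1 ratio, at 0.08. Of the 3 Ccl22 probes, 1741 averaged -0.09 ± 0.29 (interval -0.40 to 0.23, adjusted p = 0.722) over array ratios from -0.53 to 0.26. Probe 12207 averaged 0.11 ± 0.06 (n = 2 sets, interval -0.07 to 0.29, adjusted p = 0.44), and probe 10410 gave 0.35 in Cy5 and -0.20 in Cy3, both in set 1. Ratios of Ccl17 and Ccl22 lay between -0.53 and 0.38, below those of Ccl2, Ccl3 and Ccl4 on every array.

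In order of ratio, Ccl4 came first and its arrays did not overlap with those of the next gene, Ccl3 (0.93 to 1.63). The ranges of Ccl3, Ccl2 (0.72 to 1.55) and Ccl5 probe 10752 (0.65 to 1.25) overlapped, so the order among these 3 was not resolved by the spread between arrays. The differences between genes were not tested. In the distribution of all tested probes the called members stood at ranks 29, 30, 93, 120, 140 and 166 from the top.

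**Figure D2:**
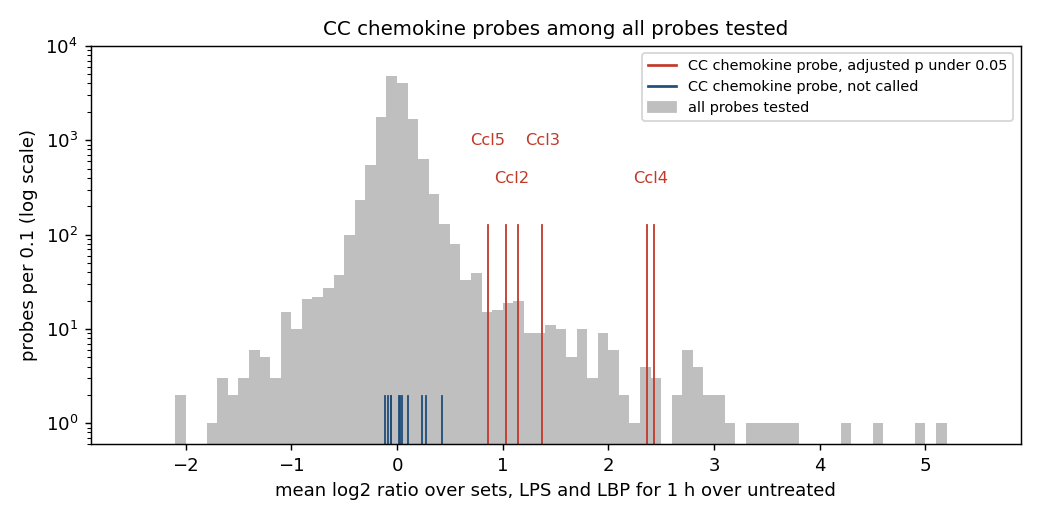
The horizontal axis is the mean log2 ratio of stimulated over untreated RNA and the grey bars count all 14723 tested probes per bin of 0.1, on a log scale. Red lines are the 6 called CC chemokine probes, from 0.86 for Ccl5 to 2.43 for Ccl4, and blue lines are the 11 tested but not called, from -0.11 to 0.43.

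Of the 12 member probes with a ratio on all 6 arrays, 5 were higher in stimulated RNA on all 6 (both Ccl2 probes, both measured Ccl4 probes and Ccl5 probe 10752), against 10.1% of all such probes. None was lower on all 6, against 8.87%, and 7 had mixed signs. For the 5, the means in Cy5 and Cy3 lay farthest apart for Ccl2 probe 4412, at 1.02 and 1.28, and were 2.48 and 2.38 for Ccl4 probe 13530 and 0.88 and 0.85 for Ccl5 probe 10752. Among members not called, the means were 0.39 and -0.35 for Ccl7 probe 9667, 0.67 and -0.18 for Ccl7 probe 13656, 0.43 and -0.22 for Ccl5 probe 9449, and -0.42 and 0.20 for Ccl6 probe 12521. A dye effect was tested on the unturned ratios in sets with both orientations, and 0 of 14 member probes passed (limma, adjusted p under 0.05), against 0.0796% of all probes tested. At an unadjusted p under 0.05 there were 2, against 24.8% of all probes. In a fit of single arrays with a dye term 0 of 17 passed, against 2.49% of all probes, with 3 at an unadjusted p under 0.05, against 27.6%. The part of dye in the mixed signs was not tested beyond this.

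**Figure D3:**
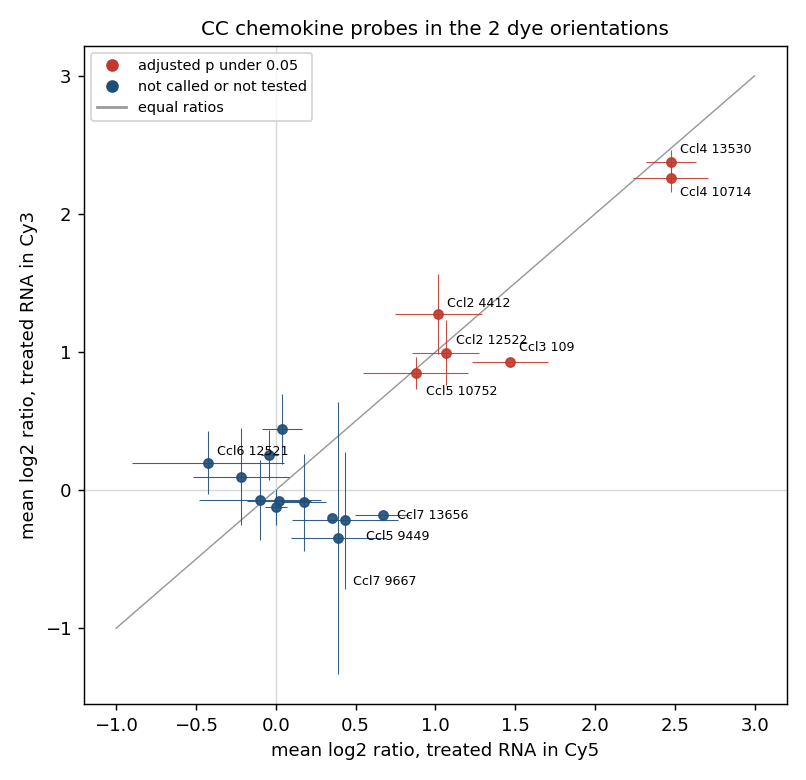
Each point is a CC chemokine probe with ratios in both dye orientations; the axes are its mean log2 ratio on the arrays with stimulated RNA in Cy5 (horizontal) and in Cy3 (vertical), and the bars are SDs over the arrays of an orientation where there were at least 2. The called probes lie close to the line of equal ratios except Ccl3 (1.47 and 0.93), next to which Ccl2 probe 4412 (1.02 and 1.28) lies farthest off it; several probes that were not called lie on opposite sides of 0.

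The members were also set in the order in which their genes lie in the mouse assembly GRCm38.p6. On chromosome 11 a first run holds Ccl2, Ccl7, Ccl11, Ccl12, Ccl8 and Ccl1, and a second run holds Ccl5, Ccl9, Ccl6, Ccl3 and Ccl4. On chromosome 8, Ccl22 and Ccl17 lie on the 2 sides of Cx3cl1. In the first run 1 of the 3 members had a called probe, Ccl2, while Ccl7 next to it did not. At an unadjusted limma p under 0.05 there were 3 of 6 tested member probes, among them Ccl7 probe 13656. Of 5 tested probes of Ccl11, Ccl8 and Ccl1, 0 were called by limma. At an unadjusted limma p under 0.05 there was 1, Ccl11 probe 16983, which was lower (-0.11). In the second run 3 of the 5 members had a called probe, Ccl5, Ccl3 and Ccl4, and Ccl9 and Ccl6 between them did not. At an unadjusted limma p under 0.05 there were 5 of 8 tested member probes, among them Ccl9 probe 15620. Of all probes 3.38% were called higher and 2.42% lower. At an unadjusted p under 0.05, 10.2% were higher and 9.45% lower. On chromosome 8 none of the 3 tested member probes and neither Cx3cl1 probe (0.06 ± 0.10 and 0.20 ± 0.16) was called by limma, and at an unadjusted p under 0.05 there were 0 of the members and 1 of Cx3cl1. Neighbouring members thus gave different calls on chromosome 11, but a difference in calls is not a tested difference between genes. This is a description of 10 genes and was not tested.

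**Figure D4:**
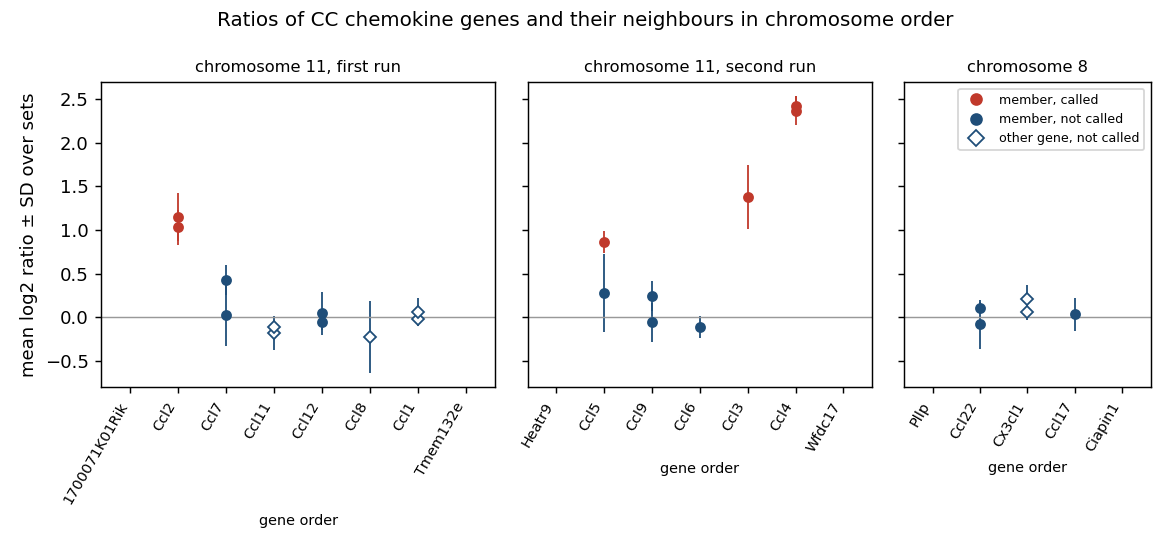
The 3 panels show genes in chromosome order, without distances, and the vertical axis is the mean log2 ratio of stimulated over untreated RNA ± SD over sets for each tested probe. Ccl2 in the first run and Ccl5, Ccl3 and Ccl4 in the second carry the called probes in red, and the highest mean of a gene without a call is that of Ccl7 probe 13656, at 0.43.

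To show the DNA in front of genes of chromosome 11 with and without a call, promoter windows of 300 bases (250 before and 50 after the start) were taken from RefSeq for GRCm38.p6. A window was found for 6 of the 10 members: Ccl3, Ccl6, Ccl9, Ccl12, Ccl17 and Ccl22. Ccl2, Ccl4, Ccl5 and Ccl7 are named only. Printed are Ccl3, called, from chr11:83649329-83649628 on the minus strand, its neighbour Ccl6, not called, from chr11:83593038-83593337 on the minus strand, Ccl9 of the same run, not called, from chr11:83578587-83578886 on the minus strand, and Ccl12 of the first run, not called, from chr11:82101595-82101894 on the plus strand. Each runs 5′ to 3′, and capitals mark matches of the kappaB consensus, to which NF-kappaB binds, and of the TATA box core.
Ccl3: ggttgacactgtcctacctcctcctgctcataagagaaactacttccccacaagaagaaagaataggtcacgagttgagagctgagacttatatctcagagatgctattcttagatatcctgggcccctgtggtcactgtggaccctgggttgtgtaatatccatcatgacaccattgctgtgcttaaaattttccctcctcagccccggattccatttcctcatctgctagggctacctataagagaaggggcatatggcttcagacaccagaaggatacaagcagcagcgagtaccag
Ccl6: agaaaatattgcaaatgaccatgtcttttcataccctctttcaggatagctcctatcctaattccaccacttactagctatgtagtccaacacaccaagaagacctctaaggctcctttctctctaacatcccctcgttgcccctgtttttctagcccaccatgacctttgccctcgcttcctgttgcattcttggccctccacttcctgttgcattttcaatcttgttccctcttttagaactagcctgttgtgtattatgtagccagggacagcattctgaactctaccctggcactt
Ccl9: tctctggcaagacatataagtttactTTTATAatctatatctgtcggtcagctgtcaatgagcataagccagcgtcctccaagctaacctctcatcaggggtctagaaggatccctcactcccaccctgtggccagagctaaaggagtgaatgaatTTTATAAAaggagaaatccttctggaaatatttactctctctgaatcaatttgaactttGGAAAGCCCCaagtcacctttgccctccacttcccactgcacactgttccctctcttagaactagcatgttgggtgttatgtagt
Ccl12: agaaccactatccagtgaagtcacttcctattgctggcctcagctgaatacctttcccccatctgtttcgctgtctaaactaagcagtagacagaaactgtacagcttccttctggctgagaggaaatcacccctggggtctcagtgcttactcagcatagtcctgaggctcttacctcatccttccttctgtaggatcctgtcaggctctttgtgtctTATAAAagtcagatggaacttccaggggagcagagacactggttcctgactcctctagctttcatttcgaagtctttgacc

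Both strands of the 6 windows were searched for 6 motifs. Within these windows the kappaB consensus matched in Ccl9, at 35 to 26 bases before the start, and it was present in 8.46% of all 32851 windows. The TATA box core (TATAAA) matched in Ccl9 and Ccl12, against 13.6% of all windows, and in Ccl12 it lay 31 to 26 bases before the start. In Ccl9 a pair of its matches on opposite strands overlap. The AP-1 motif (TGANTCA) matched in Ccl9 (7.81% of all windows), and the Ets core (AGGAAGT) in Ccl6 and Ccl12 (9.35%). The CRE core (TGACGT, 7.51%) and the E-box (CACGTG, 7.15%) matched in none of the 6. A match is only a run of letters in this window, and in Ccl3, Ccl17 and Ccl22 none of the 6 motifs was written there.

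Other CC ligands were read from a list of 13 genes that are no members. Of their 19 tested probes 1 was higher and 0 were lower by limma, against 3.38% and 2.42% of all probes. At an unadjusted p under 0.05 there were 2 and 2, against 10.2% and 9.45%, and the median of the 19 was -0.05. The call was Ccl20, an attractant of dendritic cells and Th17 cells through CCR6, whose probe 3726 rose by 1.16 ± 0.12 (adjusted p = 0.00273). Its other probe, 2819, averaged 1.14 ± 0.53 without passing (adjusted p = 0.0591). The means of Ccl20 thus lay near those of Ccl2 (1.15 and 1.03), while the arrays of probe 2819 ran from 0.54 to 2.02.

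Of 25 tested probes of CC receptors and their relatives, 3 were higher and 0 lower by limma, against 3.38% and 2.42% of all probes. At an unadjusted p under 0.05 there were 3 and 2, against 10.2% and 9.45%, and the median was 0.01. Ccrl2, an atypical receptor that presents chemerin, rose by 1.51 ± 0.16 on probe 294 but averaged 0.02 on probe 15296. Ccr9, the receptor for Ccl25, rose by 1.12 ± 0.22 on probe 9057 but averaged 0.01 and -0.00024 on its other probes. Ackr1, an atypical receptor that binds chemokines without signalling through G proteins, rose by 0.35 ± 0.04 on probe 15358 and averaged 0.13 on probe 5790. Ccr1, a receptor of Ccl3, and Ccr2, the receptor of Ccl2, were not called. Ccr1 was at 0.25 ± 0.24 and 0.10 ± 0.12, and the tested Ccr2 probe, 6440, at 0.12 ± 0.09. Ccr2 probe 1385 had ratios in set 3 only, 0.28 in Cy5 and 0.33 in Cy3, and was not tested.

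Among transcription factors of LPS-induced genes, 11 of 22 tested probes were higher and 1 was lower, against 3.38% and 2.42% of all probes. At an unadjusted limma p under 0.05 there were 14 and 1, against 10.2% and 9.45%, and the median was 0.44. The largest ratios were those of Egr1 (5.13 ± 0.16), the AP-1 subunit gene Fosl1 (1.54 ± 0.14), the NF-kappaB subunit gene Relb (1.48 ± 0.08) and the AP-1 subunit gene Fosl2 (1.03 ± 0.26), each past the test (adjusted p from 0.0002 to 0.0155). The lower probe was Fos probe 15860 at -0.45 ± 0.08, named after its value was seen, and Fos probe 13010 averaged -0.04. Ccl4 thus stood above every probe of this list except that of Egr1.

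The genes with ratios most like those of the called members were found by the root mean square difference over the 6 arrays, among 9956 probes with 1 gene symbol and a ratio on each. For both Ccl4 probes these were Sertad1, Pde4b and Gpr84, at 0.05, 0.10 and 0.18 from probe 13530 and 0.15, 0.16 and 0.24 from probe 10714. For Ccl2 they were Plaur (0.14), Gadd45b (0.15) and Fas (0.19) with probe 4412, and Fas (0.14), Cdc42ep4 (0.17) and Pdgfb (0.18) with probe 12522. For Ccl5 probe 10752 they were Rnf225 (0.12), Rsad2 (0.16) and Slc20a1 (0.18). This likeness measures the size of the ratio on each array and says nothing of shared control.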

How the data were processed

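Per the labels, each array carried both RNAs, and the authors deposited a log2 ratio for each of 16281 probes. The authors' scanner, background correction and normalization are not given in the sources used here. Array medians lay between 0.0043 and 0.0159, and whether the authors centred the arrays is unknown. Exact zeros (8.99% to 23.9% of an array) were taken as missing. The number of arrays and the missing ratios limit the precision, and no intensities were used.

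Arrays with stimulated RNA in Cy3 were multiplied by -1, the arrays of a set averaged over those with a ratio, and probes with at least 2 set averages compared with 0 in R 4.3.3 by limma 3.58.1 (moderated statistics of lmFit and eBayes, two-sided, with a prior of 2.47 degrees of freedom). A probe was called where its Benjamini-Hochberg adjusted p was under 0.05 over all 14723 probes tested. Probe names came from the platform annotation (13738 probes with 1 symbol, 52 with several, 2491 with none). Gene identifiers of 13694 probes were found in the RefSeq table, which changed 0 symbols. No probe with several symbols named a member. Probe sequences were not used here, so cross-hybridisation between related members was not examined.

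Members and lists were chosen with earlier results of these data known. Every member probe is described. From each list up to 4 called probes of largest absolute mean are named, and 3 like probes are named for each called member probe with a ratio on all arrays.

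As deviations from the mean of their orientation, arrays of the same set number correlated at 0.0056, -0.258 and -0.0636 over 11442 probes. These values show no likeness by set number. They cannot tell whether the arrays of a set share RNA, which the labels do not state, and the arrays of a set were still averaged.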

Additional observations from a re-analysis of the deposited data

How the results depend on the processing

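All probes called numbered 854, against 1428 with complete probes only, 1399 with balanced sets only, 1621 with single arrays and a dye term but no replicate block, 1509 with the set as a replicate block, and 228 to 662 with a set left out (228 without set 1 and 239 without set 3). Called members numbered 6 of 17 probes with and without the block, and between 4 and 7 of 12 to 21 tested probes under the other fits. The fit of gene means took in complete probes only and called 3 of 8 member genes (Ccl2, Ccl4 and Ccl5), against 580 of 8331 genes called higher. Ccl3 has no complete probe. The Ccl5 gene mean of 0.86 was that of probe 10752 alone, so the disagreeing probe 9449 did not enter it. The gene means of Ccl6, Ccl7 and Ccl22 likewise rest on 1 probe each. The fewest called member probes, 4 of 15 without set 1, stood against 166 of 13727 probes called higher. The most were 7 of 17, against 538 of 14479 in Cy5 alone and 424 of 14723 after quantile normalization. With and without the block 838 and 892 of 14554 probes were called higher. The members called lower and those with a dye effect stayed at 0 in each alternative run. The dye term of single arrays was added after seeing the data.

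Of 187 alternative values of single member probes, 165 kept direction and side of the threshold, 3 lost the call (Ccl3 in 2 fits, Ccl5 probe 10752 in 1), 2 gained it (Ccl7 probe 13656) and 17 turned sign. Fits in which a probe could not be tested gave no value. For Ccl3 these were complete probes only, balanced sets only, Cy3 alone, and the fits without set 2 or set 3. The 17 are of probes not called, and none passed (lowest adjusted p 0.279). On the arrays with stimulated RNA in Cy3 alone, Ccl5 probe 9449 was at -0.22, Ccl7 probe 9667 at -0.35, Ccl6 probe 12521 at 0.20, Ccl9 probe 9056 at 0.096 and Ccl12 probe 9404 at -0.087. In Cy5 alone, Ccl22 probe 12207 was at -0.040 and Ccl12 probe 13862 at 0.0031. Ccl17 probe 8941 was at -0.0025 with zeros kept, -0.028 and -0.022 with single arrays without and with the block, and -0.075 to 0.10 with a set left out. Ccl7 probe 9667 was at -0.078 after quantile normalization and -0.18 to 0.13 with a set left out. Leaving out a set gave -0.19 to 0.0066 for Ccl9 probe 9056, -0.070 to 0.17 for Ccl12 probe 9404 and -0.19 to 0.076 for Ccl22 probe 1741. The cause was not tested. Signal over background is unknown, so its limit on weak probes cannot be given.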

Other observations

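Genes downstream of chemokine receptors and regulators of mRNA decay were also read. Of 35 tested probes of receptor signalling 1 was higher and 0 were lower by limma, against 3.38% and 2.42% of all probes. At an unadjusted p under 0.05 there were 6 and 1, against 10.2% and 9.45%. The called probe was that of the Src family kinase gene Fgr, at 0.25 ± 0.02 with ratios on 5 arrays (limma, adjusted p = 0.048). The median of the list was 0.05. Of 9 tested probes for proteins that bind AU-rich transcripts, 2 were higher and 0 lower, against the same shares of all probes (3 and 1 at an unadjusted p under 0.05). The 2 called probes were those of Zfp36, whose product promotes decay of cytokine mRNAs, at 2.14 ± 0.13, and of its relative Zfp36l1, at 0.60 ± 0.10. The other Zfp36l1 probe, 14350, averaged 0.12 and was not called (limma, adjusted p = 0.336). Adgre1, which encodes the macrophage antigen F4/80, was the called macrophage marker, at 0.55 ± 0.11.

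Member probes had a ratio on all 6 arrays in 12 of 22 cases (54.5%), against 70.3% of all probes. On single arrays between 13 and 18 of the 22 had a ratio, with 13 on the array of set 2 with stimulated RNA in Cy3, which also had the largest share of zeros (23.9%). The 5 complete called member probes each had their lowest average in set 3, against 36.6% of the 453 complete probes called higher. This was noticed after the values were seen, the 5 probes are of only 3 genes, and it was not tested.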
